A study of Mus musculus with 96 samples.

Results

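SOX2 binding was compared between day 4 and day 2 of GATA6 induction in mouse embryonic stem (ES) cells, over all 42403 GATA6 binding regions of the series. The comparison rests on 5 of the 96 samples: 2 SOX2 libraries labelled 48 h and 3 labelled 96 h of doxycycline (Dox). The cells were KH2 ES cells of C57BL/6 x 129/Sv background carrying a Dox-inducible Gata6 cassette, grown in serum with LIF on mitotically inactive fibroblast feeders, which were removed by adhering them to plastic before fixation with DSG and then PFA. Dox was given at 1 µg/mL in both groups, so that their labels differ by time only, and 48 h and 96 h are called day 2 and day 4. Differences of clone or preparation between the days were not tested. The transgene encodes an HA-tagged GATA6, and the methods of the study describe 2 clones of the line without saying which clone gave which library. XEN cells of the X10 line (CD1 strain, no Dox, no LIF), a stem cell line of the extra-embryonic endoderm, and cells before Dox are given beside the comparison. The values are reads on each region scaled to the sequencing depth of the library (RPM), from chromatin immunoprecipitation followed by sequencing (ChIP-seq). The table used here holds binding at GATA6 regions and no expression, so the identity of the cells was not checked by expression markers.

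SOX2 is a high mobility group transcription factor of the pluripotency network. In ES cells it commonly binds next to OCT4, the product of Pou5f1, on a composite OCT:SOX motif in which a SOX half-site and an OCT half-site lie side by side. SOX2, OCT4 and the nuclear receptor ESRRB are the pluripotency transcription factors (PTFs) that the study profiled. SOX17 belongs to the same family as SOX2, is switched on during primitive endoderm (PrE) differentiation, and is known to pair with OCT4 on a compressed form of the composite motif that lacks the base between the half-sites. GATA6, the factor induced here, drives ES cells towards the PrE, the lineage that lines the blastocyst cavity and of which XEN cells are a cultured counterpart.

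The sequences below are examples from regions where the SOX2 signal fell and where it rose, and those that fell were picked for holding the canonical OCT:SOX letters. They are not typical of the falls, since these letters lay in 8.33% of all regions that fell (2.89% of all regions) and in 3 of the 10 with the largest fall. The deposited motif scan also accepts other letters. It has an OCT:SOX match in 71.5% of all regions and in 91.7% of those with a PTF before Dox. All are reference sequence of mm10 (GRCm38), 5′ to 3′. For the regions that fell, capitals mark the canonical OCT:SOX letters TTGTNATGC. The regions nearest Ncam2 (chr16:81481239-81481307, plus strand), Vmn2r82 (chr10:79400121-79400189, plus strand) and Tsr2 (chrX:151124061-151124129, plus strand) were among the 10 with the largest fall. The regions upstream of Pou5f1 (chr17:35504023-35504091, minus strand), Lefty1 (chr1:180933843-180933911, minus strand) and Rif1 (chr2:52072224-52072292, plus strand) belong to genes of the pluripotency network. The region in an intron of Abca4 (chr3:122145495-122145563, minus strand) had the highest SOX2 signal of all at day 2.
Ncam2: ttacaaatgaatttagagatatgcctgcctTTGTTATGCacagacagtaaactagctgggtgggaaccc
Vmn2r82: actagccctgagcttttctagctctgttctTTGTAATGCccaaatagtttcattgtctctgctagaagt
Tsr2: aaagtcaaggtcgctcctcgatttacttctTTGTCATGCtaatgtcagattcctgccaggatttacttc
Pou5f1: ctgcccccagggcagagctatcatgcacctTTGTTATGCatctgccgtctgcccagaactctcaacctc
Lefty1: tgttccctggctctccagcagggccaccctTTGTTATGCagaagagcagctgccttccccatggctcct
Rif1: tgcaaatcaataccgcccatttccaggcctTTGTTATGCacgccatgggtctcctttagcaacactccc
Abca4: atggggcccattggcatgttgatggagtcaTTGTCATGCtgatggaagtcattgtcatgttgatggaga

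The 10 regions with the largest rise held neither the canonical letters TTGTNATGC nor the compressed letters TTGTATGC, which are found in 2.89% and 1.88% of all regions, so that few of any 10 regions would hold them. For 4 of them capitals mark the best match to the SOX17 motif in the deposited motif scan. Such a match does not set the rises apart, being present in 77.9% of the regions that rose, 77.5% of those that fell and 69.2% of all. They are the regions nearest Rplp1 (chr9:61808759-61808827, plus strand), Palld (chr8:61584350-61584418, minus strand), Sesn3 (chr9:14216023-14216091, plus strand) and Fam241a (chr3:128244148-128244216, plus strand).
Rplp1: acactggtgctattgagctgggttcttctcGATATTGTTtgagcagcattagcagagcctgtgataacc
Palld: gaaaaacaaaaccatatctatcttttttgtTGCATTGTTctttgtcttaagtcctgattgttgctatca
Sesn3: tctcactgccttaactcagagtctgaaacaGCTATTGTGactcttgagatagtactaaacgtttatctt
Fam241a: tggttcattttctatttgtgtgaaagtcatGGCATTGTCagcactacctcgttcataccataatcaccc

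The deposited table gives 1 pooled value per condition, but each value is a sum of whole reads over the totals of the pooled libraries, and the reads of each library could be solved for. SOX2 at day 2 gave libraries of 17.7 and 16.7 M reads and SOX2 at day 4 libraries of 31.2 and 13.4 M reads, here called the deeper and the shallower library of each day. Only 2 totals were found at day 4 although 3 libraries are labelled, 2 of which carry replicate number 1, so which label belongs to which value cannot be told. Across 42402 regions the log2 values of the libraries correlated with Pearson's r of 0.93 within day 2 and 0.92 within day 4, against 0.55 to 0.64 between the days. These points share the region list, and wide regions collect more reads in every library. With 2 values against 2, an exact permutation test of a single value cannot go below p = 0.333, and p-values below come from limma fitted across all regions on log2(RPM + pseudocount), with Benjamini-Hochberg adjustment and a pseudocount of 0.195 RPM, which understates changes of low values. In bulk chromatin, fewer cells with SOX2 on a region and less SOX2 per cell cannot be told apart.

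The share of SOX2 reads that lay in the regions showed no fall beyond the spread of the libraries. Since reads are scaled to library depth, this share does not measure the amount of SOX2 bound. A loss of SOX2 alike at all places was not tested. At day 2, 6.46% and 7.18% of the reads lay in GATA6 regions, and at day 4 the shares were 6.23% and 6.94%. The libraries of both days overlapped, as did the median signal per region, which was 0.790 and 0.900 RPM at day 2 and 0.768 and 0.893 RPM at day 4. In XEN cells 3.51% and 3.06% of the SOX2 reads lay in the regions, beside 2.22% to 2.78% of the reads of input chromatin at days 2 and 4. What changed on this scale was the place of the signal. Regions with at least 2 RPM numbered 9620 at day 2 and 9333 at day 4, and 5365 regions belonged to both sets, which is 55.8% of the former and 57.5% of the latter. At 5 RPM the sets held 2569 and 2460 regions with 1105 in common, or 43.0% and 44.9%. Of the 1000 regions with the highest SOX2 signal at day 2, 618 were also among the 1000 highest before Dox and 372 among the 1000 highest at day 4. Of the 1000 highest at day 4, 153 were among the highest before Dox and 616 among the highest in XEN cells. On this scale the name of the comparison, a loss of SOX2, therefore holds for a subset of the regions and not for all of them. The plot of day 4 against day 2 shows regions spread on both sides of the diagonal.

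**Figure D1:**
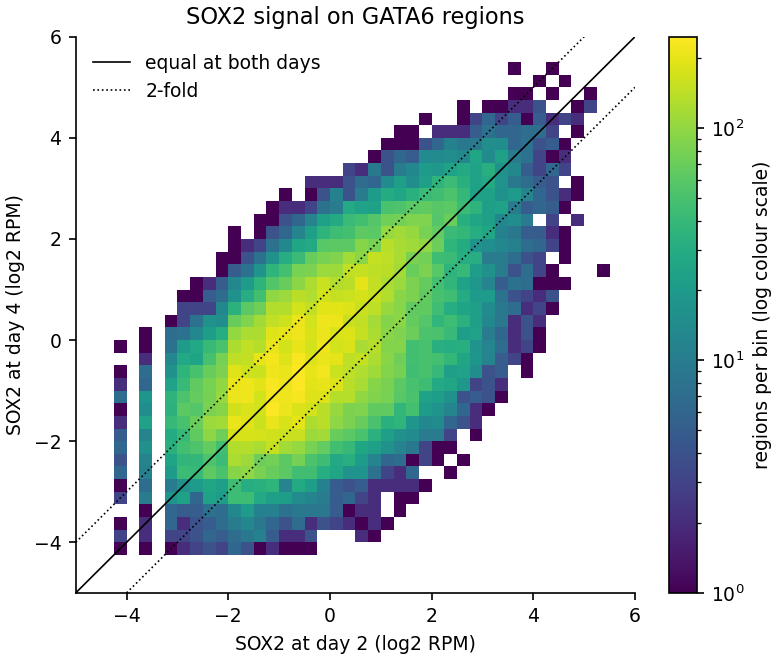
SOX2 signal at day 2 (horizontal) and day 4 (vertical) in log2 RPM from the pooled columns, with the number of regions per bin on a log colour scale, a solid line for equal signal and dotted lines for a 2-fold difference. Regions lie beyond the dotted lines on both sides, and the median change over all 42403 regions was 0.03 on the log2 scale.

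SOX2 passed the test in both directions (limma, adjusted p under 0.05, 42401 regions tested, 2 libraries at each day). It fell in 6988 regions, 16.5% of those tested, and rose in 6177, or 14.6%. With a fold of at least 2 as well, 6806 regions fell (16.1%) and 6007 rose (14.2%). Without adjustment, p was under 0.05 for a fall in 21.3% and for a rise in 20.6% of regions. Both day 4 libraries lay below both day 2 libraries in 35% of regions and above them in 35.9%. The counts depended on having both libraries of a day. Falls numbered 4110 without the deeper library of day 2, 4193 without the shallower one and 3760 without the deeper library of day 4, and rises numbered 2402, 3627 and 3105, with 2989 rises without the shallower library of day 4.

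The regions with the largest falls went from strong to near background signal. In the region 281 kb into Ncam2, which encodes a neural cell adhesion molecule, SOX2 was 15.1 and 15.8 RPM at day 2 and 0.384 and 0.893 RPM at day 4. Both day 4 values lay far below both day 2 values, with a log2 change of -4.30 ± 0.37 (SE, adjusted p = 9e-08), a 19.7-fold fall. SOX2 in an intron of Brd1, whose product binds acetylated histones, went from 19.5 and 18.3 RPM to 0.448 and 1.26 RPM (log2 change -4.30 ± 0.40). The region 212 kb upstream of Zranb2 held 5.81 and 5.88 RPM at day 2 and 0.0320 and 0.372 RPM at day 4, the lower of which is the lowest value that library takes in the table. The region 27.5 kb upstream of Tsr2 fell from 10.4 and 9.48 RPM to 0.352 and 0.521 RPM, and that 43.6 kb downstream of the Vmn2r82 start from 7.34 and 6.84 RPM to 0.352 and 0.149 RPM. The 10 largest falls ranged from 14.6-fold to 19.7-fold. Their size rested in part on single libraries of day 4: without the deeper one the log2 changes near Dio3, Arrdc3, Zranb2 and Brd1 were -2.99, -3.23, -3.41 and -3.71, and without the shallower one -4.74, -4.63, -4.74 and -4.89. All 10 passed the test without any 1 library. The others lay nearest Qk, Arrdc3, Acss1, Dnajc3 and Dio3. These regions were chosen for their size of change among regions that passed the test without overlap between the days. The passed test and the gap between the days were thus conditions of the choice, and the values describe the regions without a further test. A PTF had bound before Dox in each of the 10 by the authors' peak classes, against 20.8% of all regions. The pooled OCT4 signal of the 10 was also lower at day 4, for example 16.9 RPM at day 2 and 1.66 RPM at day 4 in Ncam2. Pooled SOX17 at this region was 4.18 RPM at day 2 and 0.710 RPM at day 4, while input was 1.07 and 0.678 RPM.

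The largest rises started from signal near that of input. In the intergenic region 106 kb from the start of Rplp1, a ribosomal protein gene, SOX2 was 0.452 and 0.0600 RPM at day 2 and 5.03 and 4.17 RPM at day 4 (log2 change 3.56 ± 0.44, adjusted p = 1.8e-06). In an intron of Palld, the gene of the actin-bundling protein palladin, it was 0.677 and 0.480 RPM at day 2 and 7.01 and 7.51 RPM at day 4 (3.28 ± 0.41). That both day 4 libraries exceeded both day 2 libraries was a condition of the choice of these regions, as was a passed test. The region near Sesn3 had 0.395 and 0.720 RPM at day 2 and 6.56 and 6.55 RPM at day 4, and that near Mical3 had 0.677 and 0.780 RPM and then 9.28 and 7.14 RPM. The other members lay nearest Fhl2, Col27a1, Spns2, Fndc3b, Fam241a and Sstr4, and the 10 rises ranged from 7.79-fold to 11.8-fold. Near Rplp1 the log2 change was 4.23 without the deeper and 2.88 without the shallower library of day 2, and all 10 rises passed the test without any 1 library. Of all regions 33.6% were Late, 61.3% closed before Dox, 62.6% without a PTF and 44.5% with SOX17. In the authors' classes all 10 regions were Late GATA6 sites, closed before Dox, without a PTF and with SOX17. Their pooled SOX17 signal was also higher at day 4, with 0.631 and 7.78 RPM at days 2 and 4 near Rplp1 and 1.30 and 13.3 RPM in Palld. Input there was 0.450 and 1.16 RPM near Rplp1 and 0.790 and 1.87 RPM in Palld, higher at day 4 as well. The part of SOX17 in these rises was not tested.

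The classes in which the authors sorted the regions differed widely in their SOX2 change. Their PTF classes separate regions with a PTF peak before Dox, regions with a PTF peak only during induction (ectopic PTF) and regions with none, and rest in part on peaks of the SOX2 libraries compared here. Where a PTF bound before Dox (8841 regions), the median SOX2 signal per library was 2.77 and 2.82 RPM at day 2 and 0.832 and 1.04 RPM at day 4. The median change was -1.21 on the log2 scale against 0.03 over all regions, and 5192 of 8839 tested regions fell (58.7%) while 106 rose (1.20%). At the 7038 ectopic PTF regions the medians were 1.52 and 1.92 RPM at day 2 and 1.89 and 2.16 RPM at day 4, so that the libraries of the days overlapped. There 598 regions fell (8.50%) and 1124 rose (16.0%), the latter share being near that of all regions. Without 1 library the falls at regions with a PTF before Dox ranged from 3239 (without the deeper library of day 4) to 4139 (without the shallower one). In the 26524 regions without a PTF, medians were 0.508 and 0.540 RPM and then 0.608 and 0.670 RPM, with falls in 4.52% and rises in 18.7%.

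**Figure D2:**
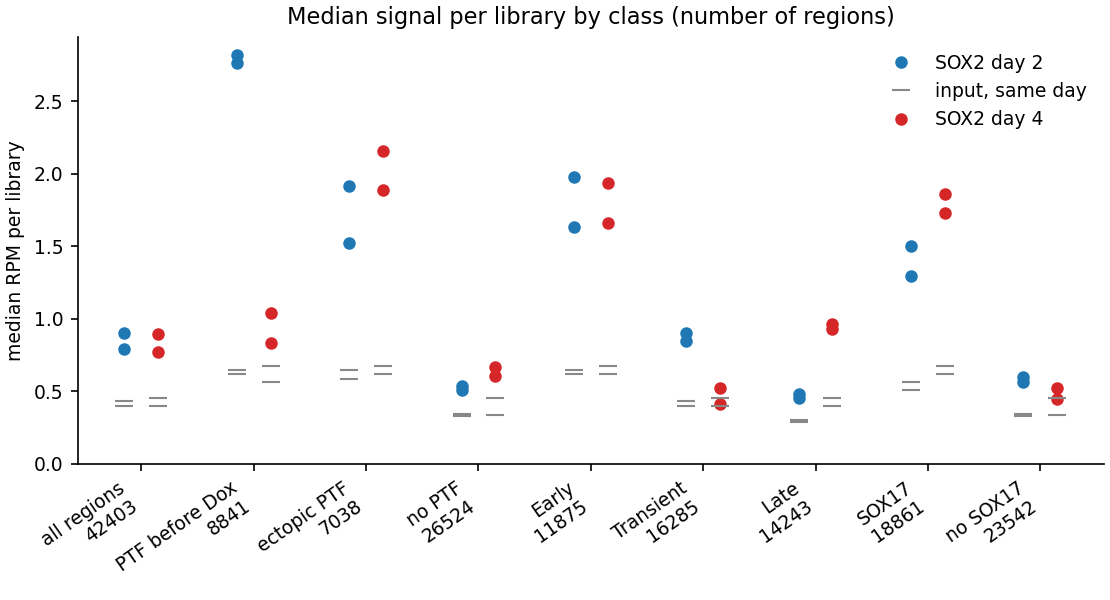
Median RPM of each SOX2 library by class of region at day 2 (blue points) and day 4 (red points), with the medians of the input libraries of the same day as grey dashes and the number of regions under each class. PTF regions before Dox went from 2.77 and 2.82 RPM to 0.832 and 1.04 RPM, and Late regions from 0.452 and 0.480 RPM to 0.928 and 0.967 RPM.

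The SOX2 change also went with the GATA6 clusters, which the authors made by k-means from GATA6 signal over time. At the 16285 Transient sites, where GATA6 binds early and then leaves, the median SOX2 signal was 0.847 and 0.900 RPM at day 2 and 0.416 and 0.521 RPM at day 4, the day 4 values lying beside an input of 0.396 and 0.452 RPM. SOX2 fell at 5337 of them (32.8%) and rose at 73 (0.448%). At the 14243 Late sites the medians went the other way, from 0.452 and 0.480 RPM to 0.928 and 0.967 RPM, with rises at 4787 (33.6%) and falls at 75 (0.527%). Without 1 library the falls at Transient sites ranged from 2963 (without the deeper library of day 4) to 3810 (without the shallower one), and the rises at Late sites from 2057 (without the deeper library of day 2) to 2820 (without the shallower one). The 11875 Early&Constant sites, at which GATA6 stays, had medians of 1.64 and 1.98 RPM at day 2 and 1.66 and 1.93 RPM at day 4, with 13.3% falling and 11.1% rising. Across all 42403 regions the change of pooled SOX2 from day 2 to day 4 correlated with that of pooled GATA6 with a Pearson's r of 0.79, the points sharing the region list and the classes built on GATA6.

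PTF history and GATA6 cluster together separated the regions further. Transient sites with a PTF before Dox (5309 regions) had medians of 2.14 and 2.10 RPM at day 2 and 0.480 and 0.670 RPM at day 4, and SOX2 fell in 73.8% of them. Early&Constant sites with a PTF before Dox (3282 regions) had medians of 4.18 and 4.80 RPM and then 2.56 and 2.75 RPM, with falls in 37.9%. The 250 Late sites with a PTF before Dox had 2.26 and 2.40 RPM at day 2 and 2.08 and 1.93 RPM at day 4, with 12.0% falling and 8.40% rising. The difference between these classes was not tested itself. Late sites without a PTF, 12558 in number, supplied 4323 of the 6177 rises.

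SOX17 sites also had more rises than falls of SOX2 antibody signal, and 3787 of their 5060 rises lay at Late sites. At the 18861 regions with a SOX17 peak the medians were 1.30 and 1.5 RPM at day 2 and 1.73 and 1.86 RPM at day 4, and 26.8% rose while 13.5% fell. At the 23542 regions without one, medians were 0.564 and 0.600 RPM and then 0.448 and 0.521 RPM, and 4.74% rose while 18.9% fell. Without the deeper library of day 2, 11.0% of the SOX17 regions and 1.42% of the others rose. Among Late sites, 49.8% of the 7603 with SOX17 rose, against 15.1% of the 6640 without it. Among regions with a PTF before Dox, 46.2% of those with SOX17 fell, against 71.4% of those without it. The median in the latter class went from 1.89 and 1.80 RPM to 0.416 and 0.595 RPM, with input at 0.396 and 0.452 RPM at day 4. Among Transient sites the direction was the other way, with falls at 47.6% of the 2631 with SOX17 and at 29.9% of the 13654 without it. Their median SOX2 at day 2 also differed, at 1.98 and 2.16 RPM with SOX17 and 0.734 and 0.780 RPM without it. A PTF had bound before Dox at 51.2% and 29.0% of them. Rises there were 1.63% and 0.220%. Among Early&Constant sites with SOX17 14.3% rose and 14.4% fell, against 2.68% and 10.2% of those without it.

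**Figure D3:**
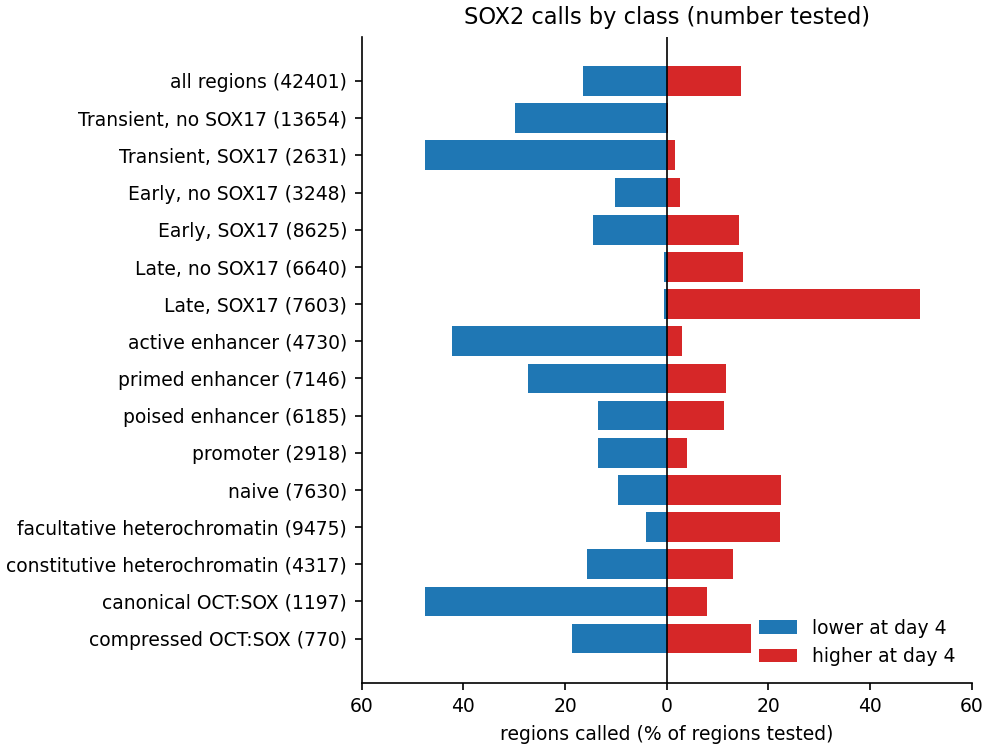
Share of tested regions in which SOX2 was lower (blue, to the left) or higher (red, to the right) at day 4 than at day 2 at an adjusted p under 0.05, by class, with the number tested in brackets. Late sites with SOX17 had 49.8% higher, Transient sites with SOX17 47.6% lower and regions with the canonical OCT:SOX letters 47.6% lower, against 16.5% lower and 14.6% higher over all regions.

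The chromatin state before Dox also went with the direction. Of regions accessible in undifferentiated cells 46.5% fell and 1.33% rose, of moderately accessible ones 28.2% and 5.82%, and of closed ones 6.88% and 20.6%. By the authors' histone states, 42.2% of active enhancers and 27.3% of primed enhancers fell, while 2.98% and 11.7% rose. Chromatin classed as naive and facultative heterochromatin, the Polycomb-marked state, rose in 22.5% and 22.3% of regions and fell in 9.65% and 4.16%. Poised enhancers (13.6% lower, 11.3% higher) and constitutive heterochromatin (15.7% and 13.0%) stood near the shares of all regions. Of the 3131 regions within 1 kb of a transcription start 7.76% fell and 8.75% rose, and of the 7707 regions more than 100 kb from any start 24.0% fell and 11.0% rose.

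Seen over the whole time course, the fall from day 2 to day 4 was not the only one. In the 4392 regions with a PTF before Dox and no SOX17, the median of the pooled SOX2 value was 3.48 RPM before Dox and 3.80 RPM at 8 h. It was 2.97 RPM after 16 h, 1.72 RPM on day 1 and 1.86 RPM on day 2, then 0.511 RPM on day 4, beside 0.435 RPM in the XEN line. In the 4449 regions with both, it went from 4.80 RPM before Dox to 4.26 RPM on day 2 and 2.10 RPM on day 4, with 0.932 RPM in the XEN line. The median of the former class was thus lower at each time after 8 h than before Dox, and day 4 was the lowest of the Dox times. These are medians of pooled values without a replicate check. In the 8895 regions with a SOX17 peak and no PTF peak, the median stayed between 0.490 and 0.692 RPM up to day 2. It was 1.43 RPM at day 4, then 0.647 RPM in XEN cells. In 18.9% of this class at day 2 and 66.2% at day 4, SOX2 was at 2 times input or more, after adding the pseudocount to both. The lack of a PTF is thus a class of the authors and not an absence of SOX2 signal. Ectopic PTF regions with SOX17 (5517 regions) went from 1.12 RPM before Dox to 1.98 RPM on day 2 and 2.65 RPM on day 4, with 0.903 RPM in the XEN line. SOX2 in XEN cells was low in all these classes, and the rise seen at day 4 was thus above both the level before Dox and that in XEN cells.

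**Figure D4:**
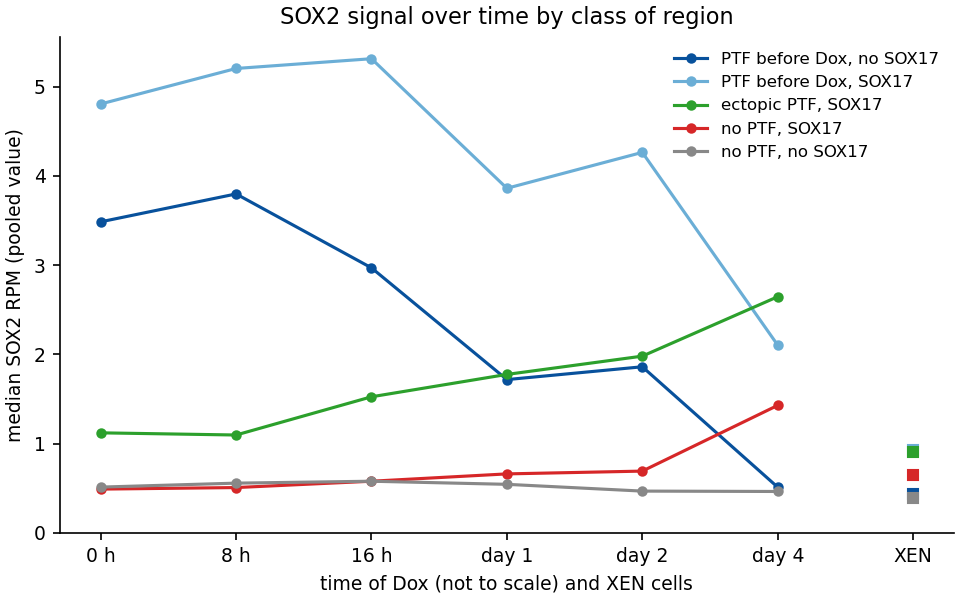
Median pooled SOX2 RPM over the regions of 5 combined classes before Dox, at 5 times of Dox (spacing not to scale) and in XEN cells (squares). Medians of regions with a PTF before Dox went down to 0.511 RPM (no SOX17) and 2.10 RPM (SOX17) at day 4, while SOX17 regions without a PTF rose to 1.43 RPM.

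The regions called lower or higher were chosen by their SOX2 values at days 2 and 4. The direction of their medians between these days was thus fixed by the choice. In the 6988 regions where SOX2 fell, the median pooled SOX2 signal was 3.51 RPM before Dox, 2.30 RPM at day 2 and 0.533 RPM at day 4, with 0.444 RPM in XEN cells. Of these regions 74.3% had a PTF before Dox (20.8% of all regions) and 76.4% were Transient (38.4% of all). In the 6177 regions where it rose, the medians were 0.451, 0.591 and 2.09 RPM, with 0.846 RPM in XEN cells. Of these 77.5% were Late (33.6% of all), 81.9% had SOX17 (44.5% of all) and 86.8% were closed (61.3% of all). The median SOX17 signal of the regions that rose was 0.986 RPM at day 2 and 3.44 RPM at day 4. SOX17 peaks and signal thus moved with the rise of SOX2 antibody signal, and their part in it was not tested.

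Few changes of input chromatin passed the test, which does not show that input was stable. Its libraries held a median of 11 and 10 reads per region at day 2 and 7 and 4 reads at day 4. The change of input passed the test in 2 regions that fell (0.00475%) and 7 that rose (0.0166%) of 42116. The median change of input was 0.36 in the regions where SOX2 rose, -0.09 where it fell and 0.11 over all regions. When the change of SOX2 was tested against that of input (limma interaction term), it was lower in 4465 regions (10.6%) and higher in 1942 (4.61%) of 42116. The falls numbered 2801 without the deeper library of day 4, and the rises numbered 908 without the deeper library of day 2, 1141 without the deeper and 1142 without the shallower library of day 4. Of the 6861 SOX2 falls among the 42116 regions 60.8% were also called against input, and of the 6169 rises 29.8%. The share of regions with SOX2 at 2 times input or more, after adding the pseudocount to both, was 38.1% at day 2 and 35.3% at day 4. In regions with a PTF before Dox it went from 88.3% to 30.6%, at Transient sites from 40.1% to 5.04%, and at Late sites from 14.9% to 49.1%. With SOX17 it went from 53.6% to 67.2% and without SOX17 from 25.8% to 9.71%. In XEN cells 4% of all regions reached it.

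Falls of SOX2 were more frequent in regions with the canonical than with the compressed letters, and this difference was not tested. The canonical letters TTGTNATGC were found on either strand in 1226 of 42403 regions (2.89%) and the compressed letters TTGTATGC in 798 (1.88%), with both in 28. Regions with the canonical letters only had a median SOX2 of 1.92 and 1.92 RPM at day 2 and 0.672 and 0.893 RPM at day 4. SOX2 fell in 47.6% and rose in 7.94% of them. Regions with the compressed letters only had 1.35 and 1.62 RPM and then 1.22 and 1.49 RPM, overlapping between the days, with 18.7% falling and 16.6% rising, near the shares of the 40407 regions with neither (15.5% and 14.7%). Among the regions that fell 8.33% held the canonical letters, and among those that rose 1.57%. The motif classes also differed in make-up. Of regions with the canonical letters only, 59.9% had a PTF before Dox, 58.1% were Transient and 42.5% had SOX17. With the compressed letters only, the shares were 29.5%, 30.4% and 68.2%.

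The motif classes were also described within the PTF classes, without a test of their differences. Of regions with a PTF before Dox, 73.1% of the 717 tested with the canonical letters fell, against 49.3% of the 227 with the compressed letters and 57.7% of the 7879 with neither. The medians were 3.27 and 3.06 RPM at day 2 and 0.608 and 0.818 RPM at day 4 with the canonical letters, and 3.27 and 3.54 RPM and then 1.44 and 1.93 RPM with the compressed letters. At ectopic PTF sites the motif classes lay close together: 10.6% of 142 regions with the canonical letters fell and 20.4% rose, against 7.47% and 17.1% of 281 with the compressed letters and 8.49% and 15.8% of 6607 with neither. At regions without a PTF, 9.17% of 338 with the canonical letters fell and 17.5% rose, and 29.4% of 262 with the compressed letters rose. A match of letters describes the sequence and is not a measured binding site.

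Most regions in which SOX2 fell also lost OCT4. In a joint fit of all factors SOX2 was lower in 20.6% and higher in 19.9% of regions, and OCT4 was lower at day 4 in 8314 regions (19.7%) and higher in 3528 (8.38%) of 42116. The SOX2 calls set beside them are those of the fit on SOX2 libraries alone, limited to the 42116 regions of the joint fit. Of these 6861 SOX2 falls, OCT4 also fell in 5277, which is 76.9% of the SOX2 falls and 63.5% of the OCT4 falls. Of 6169 SOX2 rises, OCT4 rose in 2711, which is 43.9% of the SOX2 rises and 76.8% of the OCT4 rises. No region had SOX2 and OCT4 called in opposite directions. Across all regions the changes of the pooled values correlated with a Pearson's r of 0.85, over points that share the region list. Tested directly, the change of SOX2 differed from that of OCT4 in 0 regions lower (0%) and 0 higher (0%) at an adjusted p under 0.05. At an unadjusted p under 0.05 it was lower in 856 (2.03%) and higher in 2438 (5.79%). The test on 2 libraries a group does not show that the changes are equal.

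ESRRB moved in 1 direction mainly. It was lower at day 4 in 4057 regions (9.63%) and higher in 121 (0.287%), and 2037 of its falls were SOX2 falls, which is 50.2% of the ESRRB falls and 29.7% of the SOX2 falls. SOX17 was higher in 10022 regions (23.8%) and lower in 5861 (13.9%). Of the SOX2 rises 84.8% were SOX17 rises, and of the SOX17 rises 52.2% were SOX2 rises, 5229 regions in all. Of the SOX2 falls 49.5% were SOX17 falls, 3396 regions. SOX2 and SOX17 were called in opposite directions in 36 regions where SOX2 fell and 2 where it rose. At day 4, 728 of the 1000 regions with the highest SOX2 were among the 1000 highest for SOX17, and 617 among those for OCT4.

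Of the 10 regions with the highest SOX2 at day 2, 8 did not pass the test. SOX2 in the Abca4 intron, at 38.6 and 47.1 RPM the highest of all, was 1.66 and 3.27 RPM at day 4, both far lower, and was left out of the test because the reads of another SOX2 library could not be solved there. SOX2 4.69 kb upstream of Ccn2, which encodes a matricellular growth factor, fell from 25.9 and 29.4 RPM to 4.55 and 5.73 RPM (log2 change -2.39 ± 0.34, adjusted p = 1.1e-05). The other 8 of the 10 highest, near Lamc1, Gm6993, Sall4, Rhof, Fndc3a, Tbx3, Apopt1 and Mreg, had log2 changes from -0.64 to -0.22 and did not pass the test. Near Lamc1, for example, a laminin chain gene of the basement membrane that the PrE lays down, the values were 29.2 and 42.4 RPM at day 2 and 23.1 and 30.7 RPM at day 4, which overlap. Of all regions 28.0% were Early&Constant, 20.8% had a PTF before Dox and 44.5% had SOX17. All 10 of the highest at day 2 were Early&Constant sites with a PTF before Dox and with SOX17. At day 4 the highest region lay 5.40 kb upstream of Sirt4, with 17.7 and 24.6 RPM at day 2 and 36.9 and 49.5 RPM at day 4 (log2 change 1.03 ± 0.31, adjusted p = 0.013), while its pooled OCT4 was 17.2 and 15.4 RPM and its SOX17 10.7 and 18.9 RPM. The next, in an intron of Slc7a6, went from 10.3 and 16.2 RPM to 31.3 and 49.8 RPM (1.60 ± 0.42, adjusted p = 0.0051), with pooled input at 2.82 and then 5.54 RPM. Neither passed the test without the deeper library of day 2 (log2 change 0.79 at Sirt4 and 1.27 at Slc7a6) or without the shallower library of day 4 (0.82 and 1.26).

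More regions of pluripotency genes lost SOX2 than gained it, and most did not pass the test. Within 100 kb of their starts, 34 of 36 listed genes had 250 regions, of which 98 fell (39.2%) and 8 rose (3.20%), with a median change of -0.64. Over all 34694 tested regions within 100 kb of the nearest start, 14.8% fell and 15.4% rose, with a median change of 0.09. Without the deeper library of day 4 the falls numbered 60, and without the shallower library of day 2 they numbered 64. Of the 34 genes, 27 had falls only, 2 rises only, 4 both and 1 neither. Jarid2, a Polycomb cofactor, had 26 regions of which 11 fell, and their summed signal was 83.8 and 86.9 RPM at day 2 and 26.4 and 36.2 RPM at day 4. Esrrb had 13 regions of which 8 fell, with sums of 41.0 and 49.3 RPM and then 12.3 and 17.8 RPM. Sall4 went against the list with 8 regions, of which 2 rose and none fell, and sums of 51.0 and 62.3 RPM and then 61.9 and 56.4 RPM, which overlap. Klf5, with 18 regions, had 2 falls and overlapping sums of 53.7 and 68.6 RPM and then 50.8 and 57 RPM.

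Single regions of these genes are named as those with the highest SOX2 at day 2 for each gene, a choice that favours falls. Upstream of Pou5f1, which encodes OCT4, the region at 1.96 kb held 10.6 and 11.9 RPM at day 2 and 1.38 and 1.64 RPM at day 4 (log2 change -2.75 ± 0.34, adjusted p = 1.8e-06), with pooled input at 1.5 and 0.735 RPM. The region 4.86 kb upstream of Nanog, a homeobox factor of naive pluripotency, held 10.1 and 9.42 RPM and then 1.73 and 2.01 RPM (-2.27 ± 0.39, adjusted p = 8.3e-05). The day 4 libraries lay below the day 2 libraries in both. Regions of Klf2 and Otx2, which act in naive and in primed pluripotency, fell by 2.90 and 2.91 on the log2 scale, that of Rif1, a telomere and replication timing factor, by 2.66, and those of the TGF-beta family ligands Nodal and Lefty1 by 2.52 and 2.54. Canonical OCT:SOX letters lay under the signal at Pou5f1, Rif1 and Lefty1, as the sequences above show. Of the 32 named regions of pluripotency genes 21 fell and 11 did not pass the test, and 17 of the falls passed it without any 1 library. The highest regions of Esrrb, Klf5, Sall4, Tbx3, Mycn, Tet1, Lin28a, Utf1, Dppa5a and Trim28 did not pass the test, with changes from -0.78 to -0.18. The exonic region of Nr5a2 did not pass it either, and its libraries at day 2 differed widely, with 28.7 and 3.36 RPM, against 15.3 and 19.7 RPM at day 4. Its log2 change was 0.79, turned to -0.72 without the shallower library of day 2, and was 2.30 and past the threshold without the deeper one. For Esrrb, the orphan nuclear receptor, the values were 7.73 and 11.0 RPM at day 2 and 5.15 and 7.89 RPM at day 4, which overlap.

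SOX2 fell at regions of the Sox2 gene itself as well. Within 120 kb of the Sox2 start were 11 regions, of which 7 fell and none rose, with a median change of -1.66. The cluster of regions 94.9 to 111 kb downstream of Sox2 lies where a distal enhancer of Sox2 is known in ES cells. There SOX2 was 6.27 and 6.18 RPM at day 2 and 1.5 and 2.90 RPM at day 4 at 94.9 kb (-1.48 ± 0.39, adjusted p = 0.0046). At 111 kb it was 9.65 and 6.54 RPM and then 0.704 and 1.12 RPM (-2.91 ± 0.48, adjusted p = 5.6e-05). The day 4 libraries were lower than the day 2 libraries in both. Closer to the gene, the region 4.05 kb upstream held 2.14 and 2.46 RPM and then 0.224 and 0.967 RPM (-1.84 ± 0.44, adjusted p = 0.0022). Without the deeper library of day 4 the regions at 94.9 kb and upstream of the gene had changes of -1.05 and -1.10 and did not pass the test, while the other 5 falls did. The upstream region had a change of -2.57 without the shallower library of day 4.

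Regions of PrE genes gained SOX2 antibody signal more often than they lost it. Of 39 listed genes, 38 had 326 regions, of which 104 rose (31.9%) and 15 fell (4.60%), with a median change of 0.66. The count of rises rested on the libraries: it was 26 without the deeper library of day 2, 74 without the shallower one, 49 without the deeper library of day 4 and 42 without the shallower one, while falls numbered 11, 9, 8 and 13. Of the 38 genes, 26 had rises only, 5 falls only, 3 both and 4 neither. Col4a1, which encodes a collagen chain of the basement membrane, had 18 regions with 11 rises, and summed signals of 38.9 and 49.6 RPM at day 2 and 106 and 113 RPM at day 4. Foxa2, a forkhead pioneer factor of endoderm, had 27 regions with 12 rises and sums of 35.3 and 50.3 RPM and then 79.4 and 76.6 RPM. The day 4 sums exceeded the day 2 sums for both genes. Gata4 had 20 regions with 6 rises, and sums of 55.4 and 79.6 RPM and then 98.3 and 123 RPM. Fgfr2, a receptor of FGF signalling, went against the list: 7 of its 10 regions fell and none rose, and the sums were 29.97 and 29.4 RPM at day 2 and 10.3 and 12.9 RPM at day 4.

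Of the 35 PrE regions with the highest SOX2 at day 2 of their gene, 8 rose and 6 fell. This choice again favours falls: of all 326 regions of the listed PrE genes, 31.9% rose and 4.60% fell. The plot by gene sets the 35 regions beside those of the pluripotency genes. SOX2 34.0 kb from the start of Bmp2, a secreted BMP ligand, rose from 3.61 and 5.40 RPM to 12.2 and 14.4 RPM (log2 change 1.54 ± 0.36, adjusted p = 0.0021), with pooled SOX17 at 9.98 and 27.3 RPM. SOX2 near Krt18, a keratin of simple epithelia, rose from 2.88 and 5.10 RPM to 10.4 and 12.7 RPM, and near Lamb1, another laminin chain, from 3.95 and 6.00 RPM to 12.9 and 13.5 RPM. Regions of Srgn, Pth1r, Plat, Col4a2 and Stra6 rose by 1.32, 1.26, 1.18, 1.02 and 0.93 on the log2 scale. An intronic region of Fn1, the fibronectin gene, fell from 6.15 and 6.6 RPM to 0.320 and 0.967 RPM (-3.09 ± 0.44, adjusted p = 1.1e-05), and the region 5.63 kb upstream of Pdgfra, a receptor that marks the PrE, from 10.7 and 18 RPM to 4.83 and 5.43 RPM (-1.40 ± 0.35, adjusted p = 0.0031). SOX17 was lower at day 4 at both, at 1.89 and 0.605 RPM in Fn1 and 15.9 and 7.43 RPM at Pdgfra. Regions of Amn, Sox7, Fgfr2 and Apoe also fell. None of the 8 rises passed the test without the deeper library of day 2, when their log2 changes ran from 0.76 (Stra6) to 1.26 (Bmp2). The falls of Fn1, Amn and Sox7 passed it without any 1 library. That of Fn1 was -2.50 without the deeper and -3.67 without the shallower library of day 4. The falls of Pdgfra (-1.03 without the shallower library of day 2), Fgfr2 (-0.94 without the deeper library of day 4) and Apoe (-1.09 without the shallower library of day 2) did not. The highest regions of Gata4 and Sox17 had changes of 0.58 ± 0.35 and 0.76 ± 0.38 and did not pass the test.

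**Figure D5:**
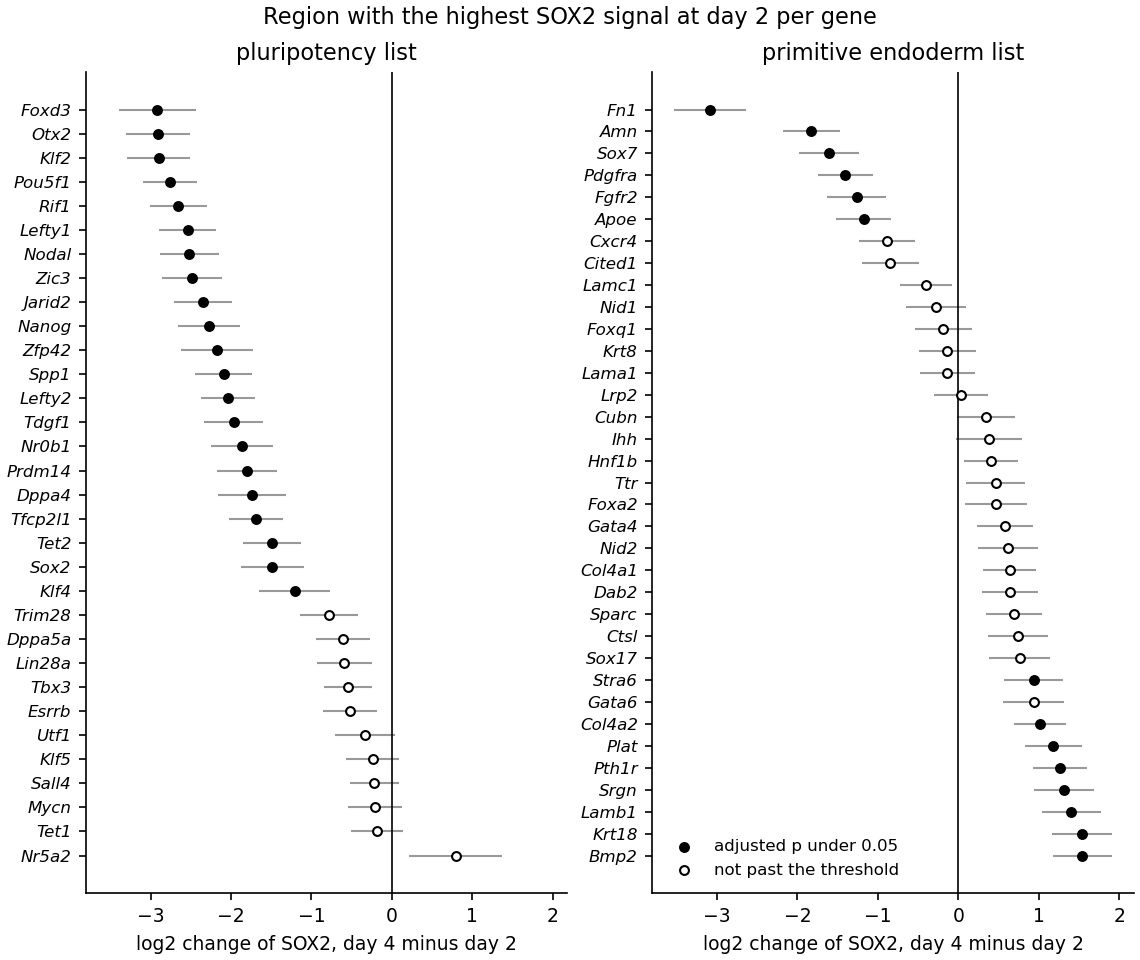
Log2 change of SOX2 from day 2 to day 4 (points, with SE from limma on 2 libraries a day as bars) for the region with the highest SOX2 at day 2 of each pluripotency gene (left) and PrE gene (right), with filled points for an adjusted p under 0.05. The changes run from -2.92 (Foxd3) to 0.79 (Nr5a2) on the left and from -3.09 (Fn1) to 1.54 (Bmp2) on the right.

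At the Gata6 locus no region fell. Of 13 regions within 100 kb of its start 4 rose, with a median change of 0.75. None of the rises was called without the deeper or the shallower library of day 2 or without the deeper library of day 4, and 2 regions were without the shallower library of day 4. The region at the start itself held 5.53 and 6.00 RPM at day 2 and 15.0 and 8.33 RPM at day 4 (0.94 ± 0.38, adjusted p = 0.059). An intronic region 28.6 kb downstream rose from 1.30 and 1.5 RPM to 3.30 and 4.02 RPM (1.27 ± 0.39, adjusted p = 0.014) while its pooled input went from 0.916 to 0.537 RPM. Over an exon 1.83 kb downstream SOX2 rose from 2.48 and 3.06 RPM to 11.4 and 6.4 RPM (1.57 ± 0.48, adjusted p = 0.014), but input rose there too, from 1.57 to 4.41 RPM. The transgene carries the coding sequence of the same gene, and reads of the gene and of the transgene over exons cannot be told apart.

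The lists of cell types other than ES and PrE cells held few regions. Of 13 regions near neural genes none fell and 1 rose, the region nearest Sox1, and when 1 library was left out a neural region rose only without the deeper library of day 4. Of 18 near fibroblast genes, which the feeder cells would express, 2 fell and 1 rose, and the rise was lost without any 1 of the libraries. The region 18.3 kb from the start of Col3a1, a fibrillar collagen gene, fell from 3.22 and 3.30 RPM to 0.544 and 0.521 RPM (-2.25 ± 0.39, adjusted p = 9.3e-05), and had a PTF before Dox.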

How the data were processed

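Per the submitters' processing notes, the authors used bcl2fastq, cutadapt, Bowtie2 and SAMtools with the mm10 genome. Their methods add a filter on mapping quality, removal of duplicates by unique molecular identifiers, MACS2 peaks and counting over regions with bamsignals. The deposited table gives RPM as 1 value for all libraries of a condition, and the lowest value of each solved library is that of 1 read. Whether 1 read was added to each count is not stated. With 1 read taken off per region, the regions held 6.22% and 6.93% of SOX2 reads at day 2 and 6.10% and 6.62% at day 4. The shares were then 3.13% and 2.62% for SOX2 in XEN cells and 2.06% to 2.30% for input at days 2 and 4. Of the deposited motif scores (best match per region), the OCT:SOX and SOX17 matches were used. Of 105 columns, 14 of accessibility and histone signal and 4 of siRNA samples were not used, nor was a class column that holds the outcome of the authors' DESeq2 comparison, although it was among the classes planned for description.

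Reads per library were solved from the RPM values, and log2(RPM + 0.195), the pseudocount being percentile 5 of the SOX2 values, was fitted with limma 3.58.1 in R 4.3.3 (trended empirical Bayes, two-sided). The SOX2 fit used libraries from 8 h to day 4, which share an estimate of the spread. Interactions with input and OCT4 used day 2 and day 4 of SOX2, OCT4, ESRRB, SOX17 and input. Nearest protein-coding starts came from GENCODE M21. Summaries used Python 3.11.15, numpy 2.4.6, pandas 2.3.3 and scipy 1.17.1. The scripts were tested on simulated data. The step between values is that of 1 read, 0.0320 to 0.0744 RPM in the SOX2 libraries of days 2 and 4. Regions held a median of 14 and 15 reads at day 2 and 24 and 12 reads at day 4. The counting error is larger than this step and was not estimated separately. The methods describe 2 independent chromatin preparations for most conditions without tying them to cultures, so p-values measure the spread between these libraries.

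Regions named were the 10 largest falls and rises among called regions without overlap between days and with at least 2 RPM, the 10 highest at day 2 and 5 highest at day 4, the highest region at day 2 of each listed gene within 100 kb if at 2 RPM or more, and regions around Sox2 and Gata6. Only some are described. Genes described by sums and the Sox1 region were picked after their values were seen. Members and gene lists were chosen with earlier results of these data known. The alternatives were other pseudocounts, centring, a signal filter, fits on fewer libraries, voom weights, no trend, means, values per kb and minus input, a stricter input ratio and a narrower motif window.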

Additional observations from a re-analysis of the deposited data

How the results depend on the processing

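No paired analysis was possible because the solved libraries carry no replicate number. Leaving out each SOX2 library in turn gave 3760 to 4970 falls and 2402 to 3627 rises per region, against 6988 and 6177. Under the other settings falls ranged from 5203 to 9236 and rises from 4615 to 9087. The share of falls among calls was 53.1%, with 41.3% at the pseudocount 10 times larger and 63.1% without the deeper library of day 2. Subtracting 1 read per library, chosen after seeing the data, gave 6493 falls and 5440 rises. Against input, leaving out a library gave 2801 to 3970 falls and 908 to 1623 rises, and a pseudocount 10 times larger or smaller gave 3034 or 1192 rises. Against OCT4, the larger pseudocount gave 32 falls and 21 rises and centring on all regions 3 falls, while leaving out a library gave 0. With the pseudocount 10 times larger the median changes were 0.24 (Late), -0.19 (Transient), -0.55 (PTF before Dox), 0.076 (no PTF), 0.20 (SOX17) and -0.060 (no SOX17), and 10 times smaller 0.97 (Late), -0.86 (Transient) and -1.41 (PTF before Dox). With input subtracted they were 0.96 (Late), -1.09 (Transient), -1.85 (PTF before Dox) and -0.41 (no SOX17), per kb 0.89 (Late), as a mean 0.29 (SOX17), and without a library 0.69 to 0.82 (Late). These classes held their direction in the settings named, while the Early&Constant median ran from -0.03 to 0.21 without a library. The share of regions above input was 17.8% at day 2 and 15.1% at day 4 at 3 times input, 9.58% and 8.16% at the larger and 51.0% and 45.4% at the smaller pseudocount. With the motif searched within 100 bases of the GATA6 summit, the canonical median was -1.32. The cause of these shifts was not tested. Of 70 named regions past the threshold, 47 kept it in every setting and 67 in every setting other than leaving out a library, and none of the 122 tested changed direction while past it. With few reads per region and steps of 0.0320 to 0.0744 RPM per read, small changes at Late and unbound regions were not detectable one by one at this depth.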
